A study of Mus musculus with 4 samples.

Results

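The messages of the mouse proteasome genes were followed in RNA that came down with an antibody to DDX20 from testis cells. Members were the protein-coding genes whose GENCODE M21 symbol is Psma, Psmb, Psmc, Psmd, Psme, Psmf or Psmg followed by a digit, with pseudogenes left out. This gave 50 of the 55357 gene identifiers in the deposited table, and all 50 were among the 17422 genes with enough counts to test. They divide into 19 genes of the 20S core, 6 ATPases, 14 further genes of the 19S particle, 10 activator, inhibitor and assembly genes, and Psmc3ip. Psmc3ip matches the symbol rule but encodes a meiotic recombination factor, not a proteasome protein, and is described apart.

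The study compared 2 libraries of RNA precipitated by an antibody to DDX20 (RIP) with 2 libraries of input RNA, which was 10% of the total RNA. All 4 came from testis cells of C57BL/6 mice aged 7 days, which were crosslinked with ultraviolet light (200 mJ per square cm at 254 nm) and lysed. No genotype or treatment beyond this separates the groups. DDX20 (Gemin3) is an RNA helicase of the DEAD-box family that works in the SMN complex, the machine that assembles spliceosomal small nuclear ribonucleoproteins. A precipitation with a control antibody was not part of the samples used here, so "higher in RIP" below says that a message took a larger share of the precipitate than of the input, which is not a measure of binding by DDX20. The antibody catalogue numbers of the RIP libraries differ by 1 character, and nothing says that libraries of a group came from separate animals or cultures. The p-values therefore measure only the spread between these libraries, which may be technical.

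The proteasome is the main protease that removes ubiquitin-tagged proteins from the cytosol and nucleus. Its 20S core is a barrel of stacked alpha and beta rings, with the protease sites facing inward on the beta subunits, and the 19S particle caps the barrel, binds and unfolds the substrate and removes its ubiquitin. Alternative core subunits replace the ordinary ones in immune cells, in the thymus and in germ cells, and PA28 and PA200 are alternative caps. In the testis, PA200 and the germ cell alpha subunit Psma8 are known for their roles in later spermatogenesis.

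Library totals were 21416567 and 21913977 counts for input, and between 37927689 and 38458014 for RIP. Libraries of a group were close, with a common biological coefficient of variation of 0.0320. Levels are normalised read counts in CPM, scaled by TMM, which sets libraries to a common level for most genes. Over all genes tested, the median fold change on the log2 scale was -0.05 with TMM and -0.40 when libraries were scaled by their totals only, so small changes depend on this choice. Markers of Sertoli, germ and Leydig cells were present in all 4 libraries, with summed input levels of 1905 and 1912 CPM for 10 Sertoli cell markers, 1158 and 1166 CPM for 10 germ cell markers, and 314 and 324 CPM for 6 Leydig cell markers.

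Most proteasome messages were under-represented in the precipitate. Of the 50 members, 40 were lower in RIP than in input, 9 were higher and Psmc4 was not called (edgeR quasi-likelihood test, Benjamini-Hochberg adjusted p under 0.05 over all genes). Over all genes tested, 77.3% were called, 38.6% as lower and 38.7% as higher. The median log2 fold change of the members was -0.78. A change of at least 2-fold was found for 21 members on the lower side and 3 on the higher side, against 23.5% and 17.1% of all genes. With libraries scaled by total counts, 5 members were higher and 43 lower, against 28.7% and 50.8% of all genes (79.4% called in all). In a test against a change of 1.5-fold, 5 members were higher and 29 lower, against 24.2% and 25.4% of all genes (49.6% called in all). The 49 proteasome genes summed to 9872 and 9889 CPM in input and to 7758 and 7814 CPM in RIP.

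In each sub-group more genes were lower than higher, in different proportions. In the 20S core, 18 of 19 genes were lower, with a median of -1.19. Of the ATPases, 4 of 6 were lower, by small amounts, with a median of -0.12. Of the other 19S genes, 6 of 14 were higher and 8 were lower, with a median of -0.35. Among activator, inhibitor and assembly genes, 9 of 10 were lower, with a median of -0.92, and Psme4 was the exception. With libraries scaled by total counts, the higher calls were 0 of 19 in the core, 0 of 6 ATPases, 4 of 14 other 19S genes and 1 of 10 activator, inhibitor and assembly genes. No test compared the sub-groups with each other.

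**Figure D1:**
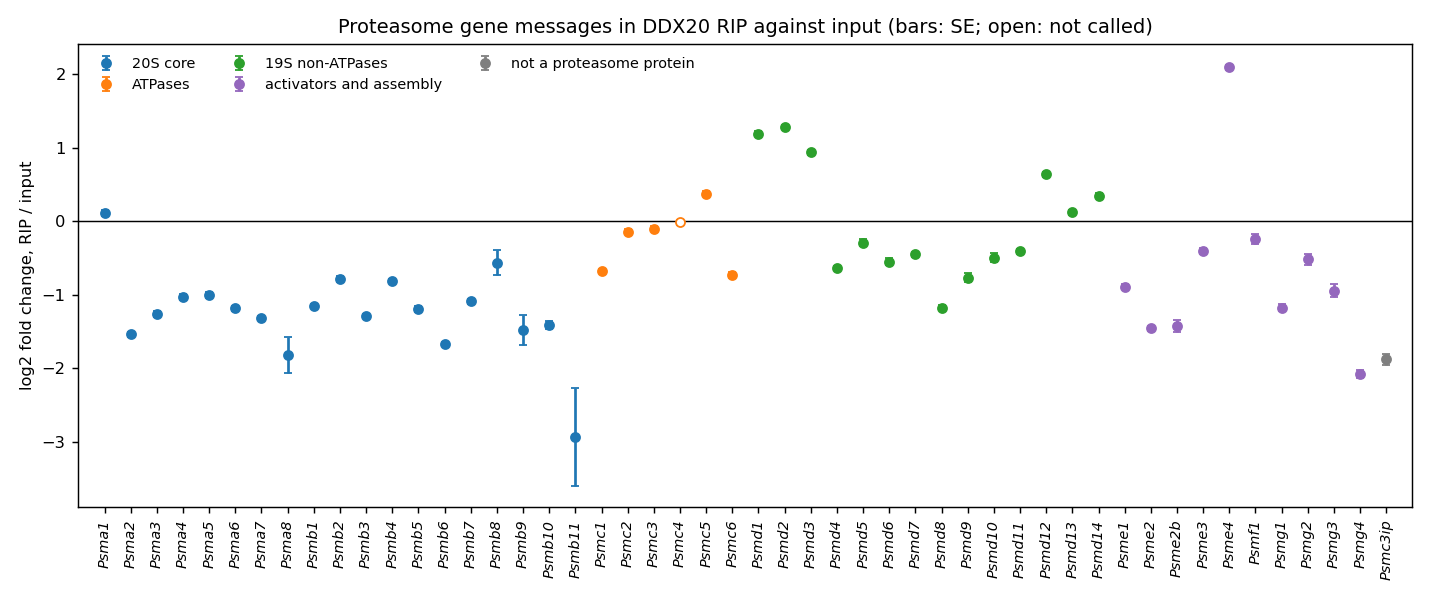
Log2 fold change of RIP over input (vertical axis) for each of the 50 members (horizontal axis), coloured by sub-group, with bars of 1 standard error and an open symbol for the member that was not called. The core genes lie below 0 apart from Psma1 at 0.11, while Psme4 at 2.10, Psmd2 at 1.28 and Psmd1 at 1.19 lie highest. Psma1 and Psmd13 turn negative when libraries are scaled by total counts.

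The alpha subunits form the outer rings of the core and the gate through which substrates enter. Psma7, the most abundant of them, measured 587 and 582 CPM in input and 236 and 234 CPM in RIP. Its log2 fold change was -1.31 ± 0.03 (SE), a level 2.49-fold lower in RIP (adjusted p = 3.14e-30). Psma2 (-1.54), Psma3 (-1.27), Psma6 (-1.18) and Psma4 (-1.03) were also lower on the log2 scale, as was Psma5, by slightly less than Psma4.

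Psma1 differed from the other alpha genes. Its level was 136 and 135 CPM in input and 142 and 150.3 CPM in RIP, so the groups did not overlap but lay close. The log2 fold change was 0.11 ± 0.04 (SE, adjusted p = 0.00764), and it was -0.24 with libraries scaled by total counts. The call was lost without the first input library (adjusted p = 0.0697) and without the second (adjusted p = 0.110).

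Among the beta subunits all 7 ordinary genes were lower. Psmb1 measured 611 and 601 CPM in input and 272 CPM in each RIP library, a log2 fold change of -1.16 ± 0.03 (SE, adjusted p = 7.69e-29). Psmb1, Psmb2, Psmb3 and Psmb4 carry no active site. The log2 fold change was -1.29 for Psmb3, -0.82 for Psmb4 and -0.79 for Psmb2.

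Psmb5, Psmb6 and Psmb7 carry the chymotrypsin-like, caspase-like and trypsin-like sites. Each has an immune counterpart, Psmb8, Psmb9 and Psmb10, which takes its place in the immunoproteasome. The coding sequence around the catalytic threonine is shown for each pair because its members share function and partly sequence, while their counts can be told apart. Each line holds 60 nt of the reference coding sequence, with the threonine codon in capitals.
Psmb5: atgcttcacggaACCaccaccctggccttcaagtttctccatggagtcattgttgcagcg
Psmb8: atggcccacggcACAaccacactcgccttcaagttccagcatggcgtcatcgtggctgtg
Psmb6: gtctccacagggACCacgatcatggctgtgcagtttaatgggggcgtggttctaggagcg
Psmb9: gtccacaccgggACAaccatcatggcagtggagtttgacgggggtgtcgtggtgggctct
Psmb7: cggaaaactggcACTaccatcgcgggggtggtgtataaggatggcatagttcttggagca
Psmb10: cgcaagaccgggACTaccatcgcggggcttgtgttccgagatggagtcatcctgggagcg

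The whole coding sequences of the pairs were 67.9% identical for Psmb5 and Psmb8, 66.2% for Psmb6 and Psmb9, and 63.3% for Psmb7 and Psmb10. Their longest identical runs were 18, 11 and 15 nt, far below the 150-nt reads. Reads of ordinary and immune subunits therefore do not share long stretches.

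Psmb6 (chromosome 11, 70525367 to 70527858, plus strand, GRCm38) measured 542 and 532 CPM in input and 167 and 171 CPM in RIP. Its log2 fold change of -1.67 ± 0.03 (SE) was the lowest of the ordinary core genes, a 3.17-fold lower level in RIP (adjusted p = 2.23e-32). Psmb7 measured 254 CPM in each input library and 119.7 and 119 CPM in RIP (log2 fold change -1.09 ± 0.03 SE, adjusted p = 3.71e-25). Psmb5 measured 159 and 166 CPM in input and 69.2 and 73.0 CPM in RIP (log2 fold change -1.19 ± 0.04 SE, adjusted p = 1.26e-23). All 3 catalytic genes were thus more than 2-fold lower, where 23.5% of all genes tested were lower by at least 2-fold. With the offset for transcript length described below, Psmb6 was at -0.30, Psmb7 at -0.12 and Psmb5 at 0.05, the last not called (adjusted p = 0.291).

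The immune counterparts were unequal in level. Psmb10 measured 86.9 and 85.2 CPM in input and 32.4 and 32.6 CPM in RIP (log2 fold change -1.41 ± 0.06 SE, adjusted p = 4.86e-22). Psmb9 measured 5.92 and 8.11 CPM in input and 2.96 and 2.07 CPM in RIP (log2 fold change -1.48 ± 0.20 SE, adjusted p = 4.62e-08). Psmb8 measured 6.36 and 7.16 CPM in input and 4.26 and 4.91 CPM in RIP (log2 fold change -0.56 ± 0.16 SE, adjusted p = 0.00272). All 3 were lower in RIP, and Psmb8 had the least secure call of them, which was lost without the second input library (adjusted p = 0.0683) or the first RIP library (adjusted p = 0.0650).

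Per kilobase of transcript, the input level of Psmb10 was 65.6 CPM per kb, against 4.15 for Psmb8 and 5.19 for Psmb9. The ordinary partners stood at 181 for Psmb5, 673 for Psmb6 and 219 for Psmb7. Immune cells express the immune subunits, and 11 of 12 macrophage and leukocyte markers had enough counts to test, with Ptprc left out by the filter. These 11 were all lower in RIP, against 38.6% of all genes tested. They summed to 215 and 218 CPM in input against 62.6 and 65.6 CPM in RIP. None of the 11 was at 0, and their part in the levels of Psmb8, Psmb9 and Psmb10 was not tested. In the bulk input RNA, fewer cells of a type and less RNA per cell cannot be told apart. A lower level in RIP is a smaller share of the precipitate, not a count of cells.

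Psma8 and Psmb11 belong to cores of germ cells and of thymic epithelium. Psma8, the germ cell partner of Psma7, had 146 and 119 counts in input and 36 and 68 in RIP. Its levels were 5.92 and 4.93 CPM against 1.06 and 2.01 CPM, a log2 fold change of -1.82 ± 0.24 (SE, adjusted p = 3.39e-08). The RIP libraries differ more from each other here than for the abundant genes, yet both lie below both inputs. The coding sequences of Psma7 and Psma8 are 74.9% identical, with a longest identical run of 17 nt.

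Psmb11, the thymic subunit, was barely detected, with 14 and 26 counts in input and 5 and 2 in RIP. Its levels were 0.567 and 1.08 CPM against 0.148 and 0.0591 CPM, with a fitted log2 fold change of -2.94 ± 0.66 (SE, adjusted p = 0.000179). The ratio of RIP to input levels from summed counts was 0.126, with an exact 95% interval of 0.0478 to 0.285 that covers counting error only. The call was lost without the second input library (adjusted p = 0.0723).

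**Figure D2:**
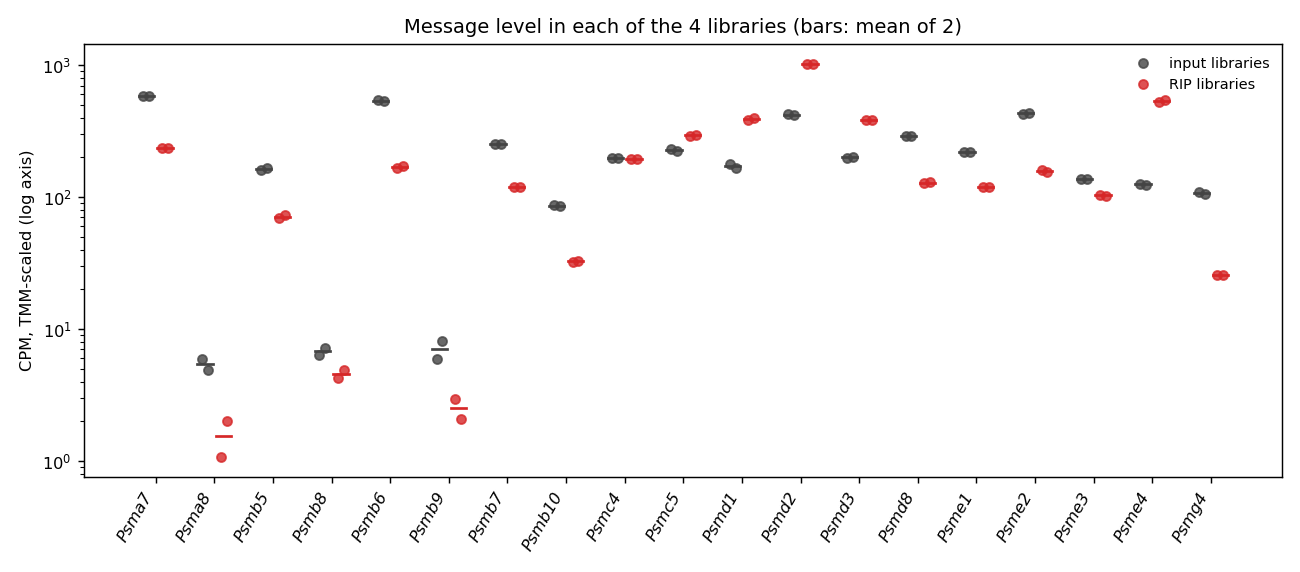
Level in CPM (vertical log axis, TMM-scaled) of 19 members with full values (horizontal axis) in each input library (grey) and each RIP library (red), with a short line at the mean of 2. Psmd2 stands highest in RIP at 1025 and 1016 CPM, Psme4 moves from 126 and 124 CPM to 527 and 540 CPM, and Psma8, Psmb8 and Psmb9 stay below 10 CPM in every library.

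Near-identical copies bear on some core genes. Of the 50 members, 10 have a copy elsewhere in the genome at 95% identity or more over at least 150 nt, and for 8 of them it is a pseudogene. Of 14 such pseudogenes, 12 had counts above 0. The main case is Gm3375, a processed pseudogene of Psmb5 on chromosome 7 (3181093 to 3181888, plus strand), whose counts were 3493, 3464, 2412 and 2326, close to those of Psmb5 itself at 3928, 3999, 2341 and 2468. The pair is shown over coding bases 268 to 417 of Psmb5 because reads must be divided between them by few bases. Capitals mark the bases that differ.
Psmb5: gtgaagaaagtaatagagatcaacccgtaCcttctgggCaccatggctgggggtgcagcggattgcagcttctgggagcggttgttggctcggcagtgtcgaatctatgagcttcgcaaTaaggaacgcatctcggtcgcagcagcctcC
Gm3375: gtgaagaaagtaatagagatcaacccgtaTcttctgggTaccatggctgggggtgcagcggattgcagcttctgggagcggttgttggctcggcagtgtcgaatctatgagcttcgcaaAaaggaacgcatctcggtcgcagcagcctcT

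Over 792 aligned coding bases Psmb5 and Gm3375 differ at 8 bases and 1 gap base. In this stretch the differences are C297T, C306T, T387A and C417T, counted from the first coding base, with the Psmb5 base first. The longest identical run is 194 nt, longer than a read, so the level of Psmb5 is uncertain by the counts of the copy. The copy had a log2 fold change of -1.02 ± 0.04 (SE, adjusted p = 9.92e-22), and adding its counts to Psmb5 gave -1.11 against -1.19 without them. Psma3 has a copy, Gm13835, that has 0 mismatches over 665 nt and had 366, 358, 238 and 232 counts. With the counts of all its copies added, the log2 fold change of Psma3 was -1.25 against -1.27.

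The 6 ATPases form the ring that unfolds substrates and threads them into the core. Their fold changes were small. Psmc5 was higher, with 229.7 and 223 CPM in input and 291 and 297 CPM in RIP (log2 fold change 0.38 ± 0.03 SE, adjusted p = 2.94e-13), but with libraries scaled by total counts its value was 0.03 (adjusted p = 0.356). Psmc4 measured 198 and 197 CPM in input and 195 and 196 CPM in RIP, with a log2 fold change of -0.01 ± 0.03 (SE, adjusted p = 0.689). All 4 libraries thus lay between 195 and 198 CPM. With libraries scaled by total counts Psmc4 was lower, at -0.36 (adjusted p = 1.93e-13).

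Psmc6 and Psmc1 were the lowest of the ring. Psmc6 measured 125 and 123 CPM in input and 73.9 and 75.4 CPM in RIP (log2 fold change -0.73 ± 0.04 SE, adjusted p = 2.10e-17). Psmc1 measured 305 and 308 CPM in input and 193 and 191 CPM in RIP (log2 fold change -0.67 ± 0.03 SE, adjusted p = 2.70e-20). Psmc3, the most abundant ATPase message, measured 393 and 394 CPM in input and 374 and 361 CPM in RIP (log2 fold change -0.10 ± 0.03 SE, adjusted p = 0.00188).

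The calls of Psmc3 and Psmc2 (log2 fold change -0.14) rest on single libraries. For Psmc3 the call was lost without the first input library (adjusted p = 0.0732) and without the second RIP library (adjusted p = 0.323). For Psmc2 it was lost without the first input library (adjusted p = 0.0669), the second (adjusted p = 0.0834) or the first RIP library (adjusted p = 0.194).

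The other 19S genes comprise the scaffold and receptor subunits of the base, the lid, and chaperones of base assembly. Without a length offset, the 2 large scaffold subunits of the base had the highest fold changes of these 14 genes. Psmd2 (chromosome 16, 20651652 to 20663414, plus strand) measured 424 and 417 CPM in input and 1025 and 1016 CPM in RIP. Its log2 fold change was 1.28 ± 0.02 (SE), 2.43-fold higher in RIP (adjusted p = 3.91e-31). Psmd1 (chromosome 1, 86064387 to 86139151, plus strand) measured 177 and 167 CPM in input and 386 and 399 CPM in RIP, 2.28-fold higher (log2 fold change 1.19 ± 0.03 SE, adjusted p = 7.72e-27). Psmd4, the ubiquitin receptor of the base, was lower with a log2 fold change of -0.64.

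Among the members, the lid, which holds the deubiquitinase Psmd14, divided evenly, with 4 of 8 genes higher. Sem1, a lid subunit outside the symbol rule, is given with the partners below. Psmd3 measured 198 and 201 CPM in input and 383 and 381 CPM in RIP (log2 fold change 0.94 ± 0.03 SE, adjusted p = 6.83e-25). Psmd12 (0.64), Psmd14 (0.35) and Psmd13 (0.12) were the other higher lid genes, while with total-count scaling Psmd14 was at 0.00 (adjusted p = 0.955) and Psmd13 at -0.23. Psmd6 (-0.55), Psmd7 (-0.45) and Psmd11 (-0.41) were lower.

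Psmd8 was the lowest of the 8 lid genes among the members and of the 14 other 19S genes. It measured 291 CPM in each input library and 127 and 131 CPM in RIP (log2 fold change -1.18 ± 0.03 SE, adjusted p = 2.04e-26). The 3 base chaperones were all lower. Psmd9 measured 61.6 and 69.6 CPM in input and 39.3 and 37.7 CPM in RIP (log2 fold change -0.77 ± 0.06 SE, adjusted p = 3.02e-13), and the others were Psmd10 (-0.49) and Psmd5 (-0.29).

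Among the activators, Psme4 stood apart. It encodes PA200, a single large protein that caps the core in place of the 19S particle and is known in the testis for the removal of acetylated histones. Psme4 (chromosome 11, 30771726 to 30880361, plus strand) measured 126 and 124 CPM in input and 527 and 540 CPM in RIP. Its log2 fold change of 2.10 ± 0.03 (SE), 4.27-fold higher in RIP, was the highest of the 50 members (adjusted p = 2.24e-34), and it stayed at 1.75 with libraries scaled by total counts.

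The PA28 activators moved the other way. Psme1 and Psme2 encode the alpha and beta subunits of the cytosolic ring that is induced by interferon, and Psme3 encodes the nuclear ring. Psme2 measured 427 and 436 CPM in input and 161 and 154 CPM in RIP (log2 fold change -1.46 ± 0.03 SE, adjusted p = 6.43e-30). Psme1 measured 219 and 220.3 CPM in input and 118 and 119 CPM in RIP (log2 fold change -0.89 ± 0.03 SE, adjusted p = 3.21e-22). Psme3 was closer to its input level, at 136 and 137 CPM in input and 104 and 103 CPM in RIP (log2 fold change -0.40 ± 0.04 SE, adjusted p = 2.00e-11).

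Psme2b on chromosome 11 is a single-exon gene almost identical to Psme2 on chromosome 14. Their coding sequences of 717 nt are 99.3% identical and differ at 5 bases, C312T, A369G, C489T, C519T and C543T, counted from the first coding base with the Psme2 base first. Coding bases 424 to 543 are shown because they hold 3 of the 5 differences, in capitals, and so show how little separates reads of these genes.
Psme2: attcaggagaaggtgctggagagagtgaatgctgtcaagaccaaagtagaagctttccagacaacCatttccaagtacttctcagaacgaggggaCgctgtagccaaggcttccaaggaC
Psme2b: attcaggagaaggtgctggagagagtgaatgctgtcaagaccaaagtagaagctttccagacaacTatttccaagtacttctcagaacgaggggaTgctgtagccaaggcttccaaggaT

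The longest identical run of the pair is 311 nt, so which of the genes a count belongs to is uncertain. Psme2b had 910 and 864 counts in input and 473 and 440 in RIP, with a log2 fold change of -1.43 against -1.46 for Psme2. With the counts of both added, the log2 fold change was -1.45.

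The inhibitor and the core chaperones were lower too. Psmf1, which encodes PI31, measured 50.8 and 49.3 CPM in input and 40.3 and 44.5 CPM in RIP (log2 fold change -0.24 ± 0.06 SE, adjusted p = 0.00102). Its call was lost without the first input library (adjusted p = 0.106) or the first RIP library (adjusted p = 0.144). Psmg1 to Psmg4 encode chaperones that build the alpha ring. Psmg4 measured 109 and 106 CPM in input and 25.6 CPM in each RIP library, 4.20-fold lower in RIP (log2 fold change -2.07 ± 0.05 SE, adjusted p = 3.22e-27). Psmg1 (-1.17), Psmg3 (-0.94) and Psmg2 (-0.52) were lower by less.

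Psmc3ip, the recombination factor that is not a proteasome protein, measured 55.2 and 53.9 CPM in input and 14.3 and 15.5 CPM in RIP (log2 fold change -1.87 ± 0.07 SE, adjusted p = 6.03e-22). It is expressed in germ cells, and 8 of 10 germ cell markers were lower in RIP, 1 was higher and 1 was not called. Of all genes tested, 38.6% were lower and 38.7% higher. The germ cell markers summed to 563 and 569 CPM in RIP, below the input sums given above, none was at 0, and their part in the values of Psmc3ip and Psma8 was not tested.

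Exons of 15 members overlap those of another gene, for 10 of them a protein-coding one, and the library kit does not mark strand. Psmb7 overlaps Nek6, Psmb9 overlaps Tap1, Psmd13 overlaps Sirt3 and Psmc3ip overlaps Mlx, among others. Reads in the shared exons cannot be assigned to 1 of the genes. Tap1 had a log2 fold change of 0.73 and Nek6 of 0.62, opposite in sign to Psmb9 and Psmb7. Mlx, at -0.39, was lower like Psmc3ip. Sirt3, at -1.13, was opposite to Psmd13 at 0.12, but not with total-count scaling, where Psmd13 was at -0.23.

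The subunits of the core enter it in equal numbers, but their messages differed widely in level. Per kilobase of transcript, the 14 ordinary core genes spanned 64.4 CPM per kb (Psma3) to 673 (Psmb6) in input, a 10.5-fold range, and 26.8 (Psma3) to 257 (Psma7) in RIP, a 9.61-fold range. The ATPases spanned 55.4 (Psmc6) to 240.4 (Psmc3) in input. The 11 base and lid genes spanned 55.3 (Psmd1) to 247 (Psmd4) in input and 45.8 (Psmd11) to 345 (Psmd2) in RIP. These levels use the length of 1 annotated transcript per gene and change where another transcript is expressed.

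The direction of the fold changes went with the length of the coding sequence. Over the 50 members, coding length and log2 fold change had a Spearman correlation of 0.71, and over the 14677 protein-coding genes tested it was 0.64. Points share the same libraries, and the correlation is given as a description. The core genes are short and alike, from 603 to 906 nt, and within them the correlation was 0.13. Among the 14 other 19S genes, from 666 to 2859 nt, it was 0.72. The GC content of the members had a correlation of -0.18 with the fold change.

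Members can be set beside other genes by ranges of coding length. The ranges at both ends are wide, the first holding genes down to 75 nt and the last reaching 100000 nt. The 22 members of 700 to 900 nt had a median log2 fold change of -1.16, against -0.48 for the 1290 protein-coding genes in that range. The 8 members below 700 nt had -1.12 against -1.02, the 8 members of 900 to 1200 nt -0.59 against -0.23, and the 9 members of 1200 to 1600 nt -0.10 against 0.16. The 3 members of 1600 nt or more, Psmd1, Psmd2 and Psme4, had 1.28 against 0.81. The members' median was thus below that of the protein-coding genes in each range up to 1600 nt and above it in the last, which holds 3 genes only. Single members did not all follow, since Psmd10, Psmd9, Psmb2 and Psmg3 below 700 nt, and Psma1, Psmd12, Psmd3 and Psmc5 in longer ranges, were among those above the median of their range. Against a smooth trend at its own length, however, Psmd9 lay slightly below (-0.77 against -0.71), and Psmb2 lay level (-0.79 in both).

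**Figure D3:**
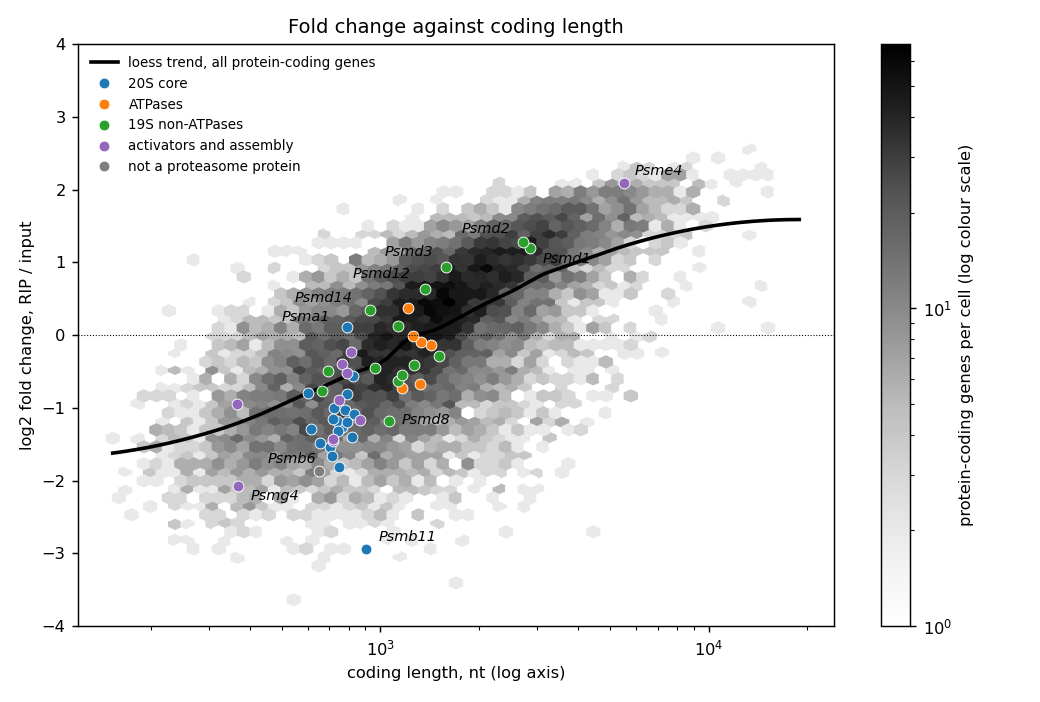
Log2 fold change of RIP over input (vertical axis) against coding length in nt (horizontal log axis) for the protein-coding genes tested (grey cells, darker where more genes fall) and the 50 members (points, coloured by sub-group), with a smooth trend over all protein-coding genes (line). The core genes of 603 to 906 nt lie mostly below the line, while Psme4 at 5529 nt, Psmd2 and Psmd1 lie above it. Psma1, also above the line, has a value that turns negative when libraries are scaled by total counts.

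This trend was then taken out as an offset in the fit, which sets each gene against others of its length. Over the 50 members, coding length still had a Spearman correlation of 0.41 with the log2 fold change after the offset, against 0.71 before. The relation with length among members was thus reduced but not removed. Fewer members were then called lower. With the coding length offset 13 members were higher, 31 were lower and 6 were not called, against 44.8% higher and 29.1% lower of 14677 genes, and the median of the members was -0.39 against 0.13. In the core 16 of 19 genes stayed lower, with a median of -0.57, led among the ordinary genes by Psmb6 (-1.02) and Psma2 (-0.87). The 9 higher members stayed higher, with Psme4 at 0.87, Psmd3 and Psmd14 at 0.79 each, Psma1 at 0.68, Psmd12 at 0.61, Psmd2 at 0.59, Psmd1 at 0.45, Psmc5 at 0.43 and Psmd13 at 0.30. Psmf1 (0.30), Psmg3 (0.27), Psme3 (0.19) and Psmd10 (0.18) turned from lower to higher.

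These counts depended on which length was used. With an offset for the length of the whole transcript, 22 members were higher and 22 were lower, against 40.8% and 27.7% of all genes. The core then had 4 genes higher and 12 lower, with a median of -0.11. Psme4 kept a value of 1.35, Psmd2 of 1.21 and Psmd1 of 1.08.

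**Figure D4:**
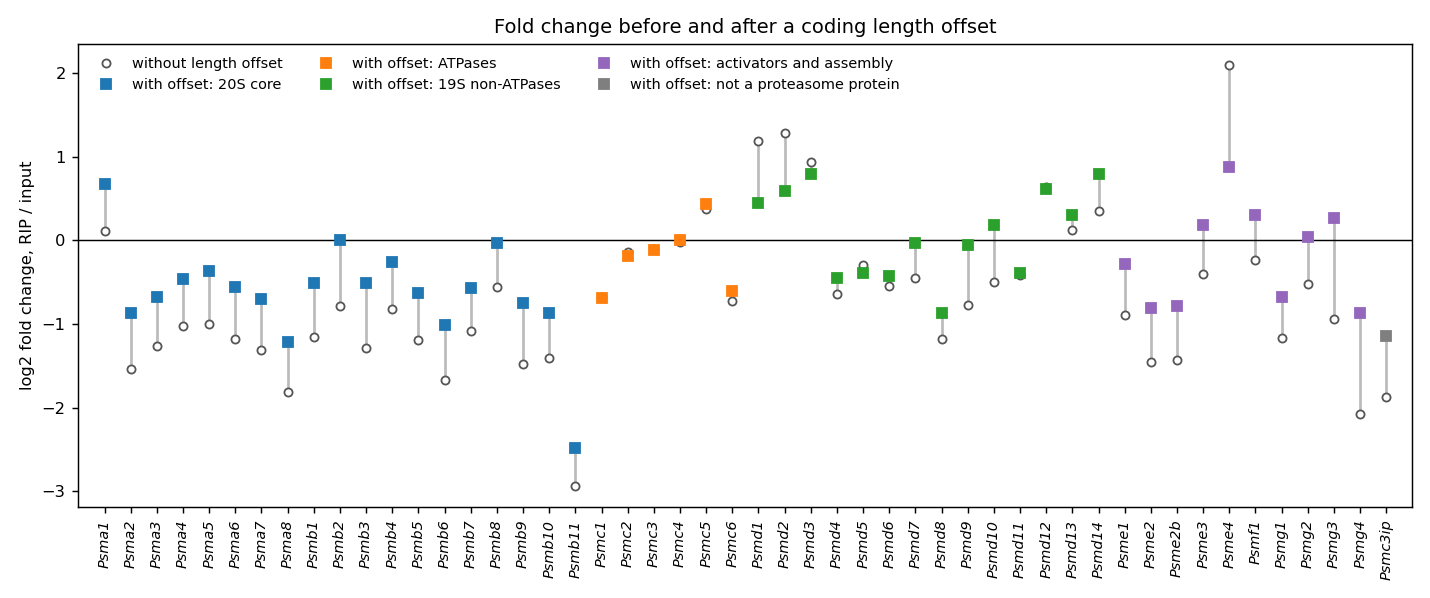
Log2 fold change of RIP over input (vertical axis) of each member (horizontal axis) without a length offset (open circles) and with the coding length offset (filled squares, coloured by sub-group), joined by a line. Most core genes move up by about the same amount and stay below 0, Psme4 moves from 2.10 to 0.87, and Psmf1, Psmg3, Psme3 and Psmd10 cross 0. Without the offset, Psma1 and Psmd13 turn negative when libraries are scaled by total counts.

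Genes that work with the proteasome under other names were both higher and lower. For these and the lists that follow, the shares of all genes tested were 38.7% higher and 38.6% lower. They were 28.7% and 50.8% with total-count scaling, and 44.8% and 29.1% with the coding length offset. Of 17 partners tested from a list of 18, 8 were higher and 9 lower, with a median of -0.07. Ecpas, a proteasome adaptor (1.85), and Ube3c, a proteasome-bound ubiquitin ligase (1.65), were higher. Adrm1, a ubiquitin receptor of the 19S particle (-0.07), and Txnl1, a proteasome-bound thioredoxin (-0.26), were lower. Sem1, a very short subunit of the lid (-1.56), and Pomp, the maturation factor of the core (-0.78), were also lower; both are named for their role, after their values were seen. With the coding length offset 12 of the 17 were higher and 2 lower. Txnl1 (0.23) and Pomp (0.33) were then higher, while Adrm1 (-0.02, adjusted p = 0.478) and Sem1 (-0.05, adjusted p = 0.237) were not called.

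Upstream of the proteasome, 3 of 6 ubiquitin precursors and activating enzymes were higher and 3 were lower. The activating enzyme Uba1 (1.37) was among the higher ones, and the precursors Rps27a (-1.50) and Ubb (-1.11) were among the lower. With total-count scaling 2 were higher and 4 lower. Of 9 genes for p97 and its adaptors, which pull substrates from complexes before degradation, 7 were higher, among them Vcp (1.72) and Nploc4 (0.97). The other 2 were lower, Ubxn1 (-0.87) and Ufd1 (-0.26). With total-count scaling 5 were higher and 4 lower, against 28.7% and 50.8% of all genes. With the coding length offset 7 were higher and 2 lower, against 44.8% and 29.1%, and Ufd1 was then higher (0.19).

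All 7 genes listed around Nfe2l1, a transcription factor that restores proteasome genes after inhibition, were higher, with a median of 0.87. With total-count scaling 6 of the 7 were higher. The list holds Nfe2l1, the related factor Nfe2l2, their Maf partners and the enzymes that process Nfe2l1. Nfe2l2 was at 1.12 and Nfe2l1 at 0.49. With the coding length offset 6 of the 7 were higher and Nfe2l1 was at 0.01 (adjusted p = 0.857). One of the 7, Ddi2, also stands in the partner list. Of the 10 genes of the COP9 signalosome, a relative of the lid, 2 were higher, Cops8 (0.73) and Gps1 (0.12, but -0.23 with total-count scaling), and 8 were lower, among them Cops6 (-1.35) and Cops7a (-0.39). Without a length offset, their median of -0.39 lay near that of the 14 other 19S genes (-0.35). With the coding length offset 3 of the 10 were higher and 6 lower, against 7 higher and 5 lower of the 14. Cops7a was then higher (0.14). Of 12 genes of class I antigen processing, 8 were higher, such as Pdia3 (1.06) and Calr (0.13, but -0.22 with total-count scaling). Another 3 were lower, including B2m (-0.17) and H2-D1 (-0.68), and the immune core subunits and Psme2 were lower. With total-count scaling 6 of the 12 were higher and 4 lower. With the coding length offset 7 were higher and 2 lower, and B2m was then higher (1.07). Psmb8 was not called with that offset (-0.04, adjusted p = 0.857), while Psmb9 (-0.75), Psmb10 (-0.87) and Psme2 (-0.81) stayed lower.

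Markers of most other cells were lower in RIP, as most members were. The shares over all genes tested were 38.7% higher and 38.6% lower, or 28.7% and 50.8% with total-count scaling. Sertoli cell markers were higher for 2 of 10 (Wt1 0.70 and Gata4 0.26, the latter -0.09 with total-count scaling) and lower for 7, including Inha (-1.19) and Amhr2 (-0.54). All 6 Leydig cell markers were lower, including Hsd3b1 (-1.61) and Cyp11a1 (-0.78), as were 5 of 5 red cell genes, including Hba-a1 (-1.59) and Hbb-bs (-2.11). Endothelial markers were higher for 1 of 7 (Flt1 1.71) and lower for 5, including Cdh5 (-2.32) and Egfl7 (-1.32). Zbtb16 (0.38) was the higher germ cell marker, but was not called with total-count scaling (0.04) or the coding length offset (-0.01). Uchl1 (-0.86) and Tex101 (-1.44) were among the lower ones. No marker with enough counts to test was at 0 in any library, and the part of the markers in the members' values was not tested.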

How the data were processed

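RIP and input RNA of testis cells was sequenced as 150-nt read pairs from a kit that does not mark strand. The deposited values are raw read counts per gene; the submitters' processing notes name GRCm38, STAR 2.7.2b, featureCounts, SAMtools, Trimmomatic 0.36 and cutadapt 4.1, while their order and settings, like the annotation release, were not given in the sources used here. Between 65.37% and 67.40% of nonzero counts per library are even, as arises when both mates are counted, which overstates depth. Group and replicate came from sample titles. Symbols, lengths and sequences came from GENCODE M21 (GRCm38), by the best APPRIS transcript.

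Genes were kept by filterByExpr, scaled by TMM and tested with edgeR 4.0.16 (robust quasi-likelihood) in R 4.3.3, adjusted over all 17422 genes, threshold 0.05; the standard error is the log2 fold change over the root of F. On data simulated for RIP against input over 17422 genes, 72%, 80%, 92% and 96% of genes changed by 1.5-, 2-, 4- and 8-fold were called, with 6 unchanged. Only 50 genes were changed per fold, evenly up and down, with 1 dispersion for all genes and no length trend. The simulation therefore cannot speak to scaling or false calls where 77.3% of genes are called. Length offsets are loess trends (span 0.3). Alternatives were other scalings and filters, DESeq2 1.42.0, limma 3.58.1, halved counts, a 1.5-fold test, length offsets, the replicate block and leaving out libraries; adding copies' counts was chosen after seeing the data.

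Members and lists were chosen with earlier results of these data known. Full values are given per sub-group for the 2 highest and 2 lowest fold changes and the 2 highest mean levels, the catalytic pairs, Psma7 and Psma8, Psme1 to Psme4, and Psmc3ip; of other lists, up to 2 called genes per direction by mean level are named. One gene that this rule would name is not reported here.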

Additional observations from a re-analysis of the deposited data

How the results depend on the processing

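The 40 lower members stayed between 37 and 43 under every alternative except 3: 31 with the coding length offset, 22 with the transcript length offset and 29 with the test against a change of 1.5-fold. The 9 higher members became 5 with upper quartile scaling, with total counts and with the 1.5-fold test, and 22 with the transcript length offset; leaving out 1 library gave 8 to 9 higher and 37 to 39 lower. Over all genes the 1.5-fold test called 8636 (4210 higher, 4426 lower), and the coding length offset called 4276 lower; leaving out 1 library gave 11337 to 12384 calls. With the replicate number as a block, 9 members were higher and 40 lower, and over all genes 6734 higher and 6655 lower; no member's call changed. Same-numbered libraries did not deviate together (correlation 0.00523 over 9828 genes). With 1 difference between libraries per group, this cannot tell whether same-numbered libraries share a preparation.

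With upper quartile scaling and with total counts, Psma1 was at -0.23 and -0.24 and Psmd13 at -0.22 and -0.23. With the coding length offset the sign turned for Psmb2 (0.0028), Psmc4 (0.0077), Psmd10 (0.18), Psme3 (0.19), Psmf1 (0.30), Psmg2 (0.043) and Psmg3 (0.27). With the transcript length offset it turned for Psmb2 (0.50), Psmb3 (0.12), Psmb4 (0.13), Psmb5 (0.050), Psmb8 (0.024), Psmc2 (0.33), Psmc3 (0.48), Psmc4 (0.71), Psmd4 (0.17), Psmd6 (0.22), Psmd7 (0.17), Psmd10 (0.24), Psme1 (0.13), Psmg2 (0.55) and Psmg3 (0.32). Psmc4, which was not called, was at 0.0082 with RLE scaling and with DESeq2, 0.040 with no filter, and between -0.017 and 0.025 when 1 library was left out, but was called lower with total counts (-0.36), upper quartile scaling (-0.36) and a filter of 1 CPM in 2 libraries (-0.10), and higher with the transcript length offset. Halving the counts ended the call of Psma1 (0.06, adjusted p = 0.105). Psmb11 has no value with halved counts or with a filter of 1 CPM in 2 libraries, which it did not pass. Beyond the offsets' own construction, the cause of these changes was not tested. Depth limits Psmb11, Psma8, Psmb8 and Psmb9, each with under 200 counts per library.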
